A study of Mus musculus with 16 samples.

Results

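The calmodulin-dependent kinases described here were 10 genes, chosen by symbol from the 54347 genes of the count table. They comprise *Camk2a*, *Camk2b*, *Camk2d* and *Camk2g*, which encode the 4 subunits of CaMKII, and the inhibitor gene *Camk2n1*. The others are *Camk1*, *Camk1d* and *Camk4*, which encode CaMKI and CaMKIV enzymes, and *Camkk1* and *Camkk2*, which encode the kinases that activate them. Of the 10 genes, 6 passed the filter on low counts and were tested among 13150 genes, and the other 4 were at the edge of detection.

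Polyadenylated RNA was sequenced from wt1-SAM cells, immortalized mouse brown preadipocytes with a stable CRISPRa SAM system (an inactive Cas9 and activator proteins that guides recruit to a site), so every group holds the activator. Cells differentiated into brown adipocytes were transfected on day 4 with 250 ng of plasmid, which was the empty vector or 2 vectors with guides against the long noncoding RNA gene *Gm15551* (sgRNA cells), and were harvested on day 7. In each plasmid group the cells were left unstimulated (control) or received 1 µM isoproterenol, a β-adrenergic agonist, for the last 24 h (stimulated). Each of the 4 groups had 4 libraries, numbered 3 to 6. The sources do not say that the numbers stand for separate cultures, so the p-values measure the spread between these libraries, which may be technical. All cells are of 1 line, and the RNA is bulk RNA, in which fewer cells that express a gene and less RNA of it per cell cannot be told apart.

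These kinases read calcium. When calcium rises in the cytosol it binds calmodulin, and calcium-loaded calmodulin opens the autoinhibited kinase domain. CaMKII subunits assemble into large rings whose neighbours phosphorylate each other, which keeps the enzyme active after calcium has fallen. CaMKI and CaMKIV work as single chains and reach full activity after phosphorylation by a CaMK kinase, and *Camkk2* also phosphorylates AMPK, the energy sensor of the cell. In brown adipocytes the β-adrenergic signal runs mainly through cyclic AMP and protein kinase A, and calcium signals accompany it.

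*Camk2d* is the gene around the CRISPRa target. It lies on the plus strand of chromosome 3 (GRCm38 chr3:126596302-126846326), and *Gm15551* lies on the opposite strand within it (chr3:126667329-126669044). In the longest coding transcript of *Camk2d*, which has 19 exons, this is the intron between exons 2 and 3, and 0 annotated *Camk2d* exons overlap *Gm15551*. The guides and the window upstream of the RefSeq start of *Gm15551* (chr3:126668944-126669193, minus strand, RefSeq, GRCm38.p6) show how close the activator is placed to *Gm15551* and how far it is from the start of *Camk2d*. The guides are those numbered 2 and 7 in the study's supplement, the numbers that the sample titles carry. In the window, capitals mark the target of guide 2, which is followed by TGG, the motif that Cas9 needs. In guide 7, capitals mark the 13 bases that occur at the far end of the window on the other strand, where the window stops.
guide 2: cacttccagttatataagcg
guide 7: AGGGTTTTTTGCTaaaacgg
Gm15551 window: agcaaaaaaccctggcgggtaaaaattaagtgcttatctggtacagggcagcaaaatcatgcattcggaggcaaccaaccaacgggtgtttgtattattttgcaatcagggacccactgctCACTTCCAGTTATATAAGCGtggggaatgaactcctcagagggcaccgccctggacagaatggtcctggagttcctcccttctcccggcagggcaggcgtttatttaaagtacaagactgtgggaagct
Guide 2 matched chr3:126669053-126669072 on the minus strand, 9 bases upstream of the GENCODE start of *Gm15551* and 72751 bases into *Camk2d* from its gene start.

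The targeted gene was examined first, as a check of the plasmid labels. *Gm15551* was at 1.08, 0.985, 0.390 and 1.35 CPM (counts scaled to library size after TMM normalization) in empty vector control replicates 3, 4, 5 and 6, and at 3.92, 3.19, 1.42 and 3.34 CPM in sgRNA control cells. In stimulated cells it was at 0, 0.166, 0 and 0.421 CPM with the empty vector and at 2.04, 1.47, 1.04 and 1.70 CPM with the sgRNA vectors. Within each treatment every sgRNA library lay above every empty vector library. The averaged sgRNA effect was a log2 fold change of 2.37 (SE 0.39), and the adjusted p was 0.0989 by the quasi-likelihood test of edgeR and 0.00055 when the replicate number was a block. The block is given beside results here because libraries of the same number deviated together from their group means.

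Total counts ranged from 9053521 to 16546187 per library, and 1 ribosomal RNA gene took between 11.7% and 51.8% of them. That share was 19.7% to 47.3% in empty vector control, 22.1% to 51.8% in empty vector stimulated, 17.8% to 20.2% in sgRNA control and 11.7% to 28.7% in sgRNA stimulated libraries. All 8 adipocyte markers were detected, and their summed level was between 9403 and 22279 CPM over the 16 libraries, most of it from *Fabp4*, a fatty acid binding protein gene, at a mean of 14462 CPM. *Ucp1*, the uncoupling protein of brown fat, was between 0 and 0.979 CPM in control and between 4.37 and 15.5 CPM in stimulated libraries. Of 7 skeletal muscle markers 2 passed the filter, *Acta1* with 433 and *Ttn* with 149 counts over the 16 libraries, and the other 5 had between 0 (*Myod1*) and 7 counts. Of 6 neuron markers 1 passed the filter, *Map2* with 343 counts over the 16 libraries. The others had between 1 (*Nefl*) and 34 (*Snap25*) counts.

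Levels of different kinases were compared per kilobase of the longest coding transcript. *Camk1*, a broadly expressed CaMKI, had the highest median, 21.6 CPM per kilobase, and *Camk2d* followed at 11.1 CPM per kilobase. *Camk1* lay above *Camk2d*, and *Camk2d* above *Camk2g*, in all 16 libraries. *Camk2g*, the other CaMKII subunit gene found at a clear level, had a median of 4.52 CPM per kilobase and *Camkk2* one of 4.25 CPM per kilobase. These neighbours overlapped, with *Camk2g* higher in 13 of 16 libraries. *Camk1d* followed at 0.671 and *Camkk1* at 0.394 CPM per kilobase, and each lay above the next gene in every library. The medians of *Camk2b*, *Camk4*, *Camk2n1* and *Camk2a* were between 0 and 0.0336 CPM per kilobase, and their order changed from library to library.

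Within CaMKII, *Camk2d* made up between 64.7% and 76.3% of the summed level per kilobase of the 4 subunit genes, with a mean of 71.0% over the 16 libraries. *Camk2g* made up between 23.3% and 35.3%. *Camk2a* and *Camk2b*, whose products are known as the neuronal subunits, reached at most 0.294% and 0.459%. With all annotated exons merged as the length, the order of the first 6 genes was kept, but *Camk2d* and *Camk2g* were closer, at medians of 2.73 and 2.61 CPM per kilobase, and *Camk2d* was then higher in 10 of 16 libraries.

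Salmon divides reads that fit several genes, so shared sequence was counted. Of the 5494 words of 31 bases in the longest coding transcript of *Camk2d*, 5 also occurred in another gene and 0 in another of the 10 kinase genes. The words of *Camk2g* and *Camkk1* occurred in 0 other genes. In *Camk1* 35 words, 2.39%, were shared with *Ogg1*, its neighbour, so a small part of its counts is uncertain. *Camk1d* shared 22 words, 0.317%, with other genes, 14 of them with *Camk2a* or *Camk2b*. *Camk2a* shared 76 words, 1.54%, 26 of them with other kinase genes of the 10, and *Camk4* shared 42 words, 1.56%, so their few counts are uncertain.

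The question of the stimulation contrast was which of these kinases change in level when brown adipocytes are stimulated through β-adrenergic receptors. *Camk2d* fell and the other tested CaMKII gene, *Camk2g*, did not pass the test. *Camk1d* rose when the replicate number was a block and did not pass without it. *Camk1*, *Camkk1* and *Camkk2* did not pass the test either way. Averaged over plasmids, 1 of the 6 tested genes was called at an adjusted p under 0.05 without the block, where 4.49% of all tested genes were called (2.06% higher and 2.43% lower). With the block 2 of 6 were called, against 21.3% of all tested genes (10.9% higher and 10.4% lower).

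**Figure D1:**
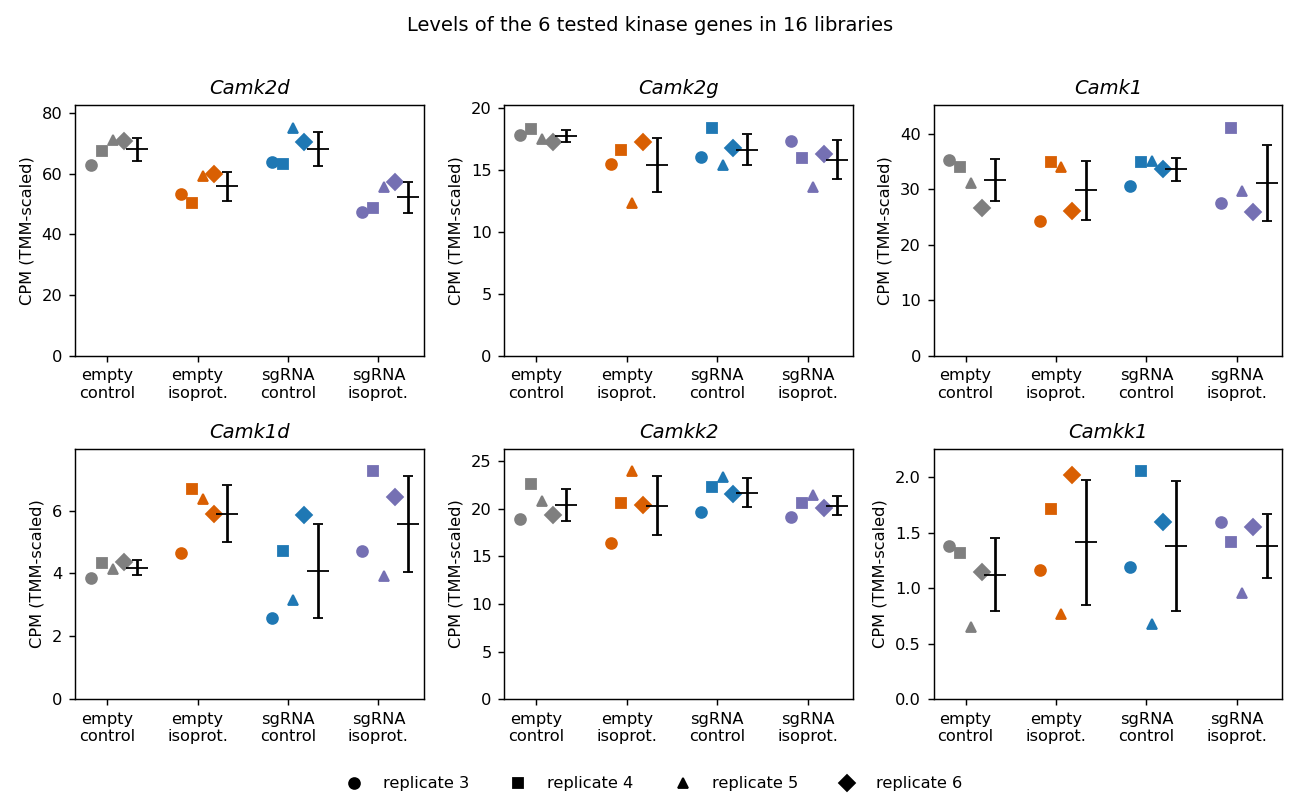
Level of the 6 tested kinase genes in each of the 16 libraries, in CPM on a linear axis that starts at 0, by plasmid and treatment. Symbols are single libraries by replicate number, and the black bars give mean ± SD (n = 4). The 8 stimulated libraries of *Camk2d* sit between 47.3 and 60.1 CPM, below the 8 control libraries at 62.8 to 75.1 CPM, while in each of the other genes the 8 control and the 8 stimulated libraries overlap.

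*Camk2d*, the CaMKII subunit gene with the highest level here and the main one of heart muscle, was at 62.8, 67.5, 71.3 and 70.7 CPM in empty vector control replicates 3, 4, 5 and 6, a mean of 68.1 ± 3.88 CPM (SD, n = 4). In empty vector stimulated cells it was at 53.5, 50.4, 59.4 and 60.1 CPM, a mean of 55.8 ± 4.68 CPM (SD, n = 4). Every stimulated library with the empty vector was thus below every control library with it. In sgRNA cells *Camk2d* was at 64.0, 63.1, 75.1 and 70.5 CPM in control, a mean of 68.2 ± 5.69 CPM (SD, n = 4). After stimulation it was at 47.3, 48.7, 55.5 and 57.4 CPM, a mean of 52.2 ± 4.99 CPM (SD, n = 4). Again the treatments did not overlap, and the lowest of all 8 control libraries lay above the highest of all 8 stimulated libraries.

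Averaged over plasmids, *Camk2d* fell by 20.7%, a log2 fold change of −0.34 (SE 0.07, 95% interval −0.47 to −0.20, adjusted p = 0.00727 by edgeR, quasi-likelihood F-test). It was lower in 8 of 8 pairs of the same plasmid and replicate number, by log2 CPM differences of −0.23 to −0.44. With the replicate block the log2 fold change was −0.34 (95% interval −0.42 to −0.25, adjusted p = 2.22e-05). The fall is small: it lies within a bound of 0.5 on the log2 scale.

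Within a group the level of *Camk2d* followed the replicate number. Replicates 3 and 4 lay on average 0.10 and 0.09 below their group means in log2 CPM, and replicates 5 and 6 lay 0.10 and 0.09 above. Replicate number accounted for a share of 0.870 of the variance within groups. The call without the block was lost when all libraries of replicate 3 or of replicate 4 were left out (adjusted p = 0.0705 and 0.0905), while the log2 fold change stayed between −0.31 and −0.34 in these fits. It held without replicate 5 or 6 (adjusted p = 0.0347 and 0.0222), in each of the 16 fits that left out 1 library, and in every such omission of a replicate number with the block, where the highest adjusted p was 0.00127.

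In the empty vector cells alone the log2 fold change of *Camk2d* under isoproterenol was −0.29 (SE 0.09, adjusted p = 0.237 in edgeR, 0.00392 with the block), and 0.913% of tested genes were called there without and 9.57% with the block. In sgRNA cells alone it was −0.38 (SE 0.09, adjusted p = 0.0814 in edgeR, 0.0004 with the block), with 0.722% and 8.4% of tested genes called. *Camk2d* was the 1 kinase gene called in each of these contrasts with the block, and 0 of the 6 were called without it, although 1 had an unadjusted p under 0.05 in each. Of all tested genes 1332 in the empty vector and 1112 in the sgRNA cells had an unadjusted p under 0.05 in edgeR without the block. DESeq2 called 0 of the 6 in the empty vector cells, beside 275 of all genes with a count. In the sgRNA cells it called 1, *Camk2d*, beside 222 of all genes with a count.

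Other features of the libraries moved with treatment. Of the 8 adipocyte markers, 1 rose and 3 fell under isoproterenol in edgeR without the block, and 2 rose and 5 fell with it. Without the block *Adipoq*, an adipokine gene, had a log2 fold change of −1.06, *Lipe*, the hormone-sensitive lipase gene, −0.69 and *Pnpla2*, the triglyceride lipase gene, −0.67, while *Ucp1* had one of 4.03. The second to rise with the block was *Cidea* (log2 fold change 1.20, adjusted p = 0.000746). The summed level of all 8 was 12896 to 22279 CPM in empty vector control and 9403 to 17212 CPM in empty vector stimulated libraries, and 15973 to 20732 against 9829 to 19141 CPM in sgRNA libraries. Of the 5 macrophage markers 1 passed the filter, *Cd68*, a lysosomal membrane protein gene, and it rose (log2 fold change 0.91, adjusted p = 0.00518 in edgeR). Their summed level was 8.18 to 14.4 CPM in empty vector control, 14.4 to 22.6 CPM in empty vector stimulated, 6.44 to 13.8 CPM in sgRNA control and 13.6 to 22.1 CPM in sgRNA stimulated libraries, and the 4 markers that did not pass the filter were at means of 0.00346 to 0.189 CPM. Of the 8 preadipocyte or fibroblast markers 4 were tested. Without the block 0 were called in edgeR, 0 had an unadjusted p under 0.05 and DESeq2 called 0, and with the block 1 rose, *Ly6a*, a surface antigen gene of progenitor cells (log2 fold change 1.09, adjusted p = 4.92e-06), higher in 8 of 8 pairs. Their summed level was 28.1 to 118.4 CPM in empty vector control, 37.0 to 144.3 CPM in empty vector stimulated, 29.7 to 90.9 CPM in sgRNA control and 38.1 to 121 CPM in sgRNA stimulated libraries. Of the 5 smooth muscle markers tested, edgeR called 0 without the block (2 at an unadjusted p under 0.05) and DESeq2 called 1, while with the block 2 rose and 3 fell. The part of these markers in the fall of *Camk2d* was not tested. When the ribosomal RNA share entered as a covariate, the log2 fold change of *Camk2d* was −0.36 (adjusted p = 0.00324 in edgeR).

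*Camk1d* encodes a CaMKI isoform, also known as CaMKIδ. It was at 3.85, 4.34, 4.16 and 4.36 CPM in empty vector control replicates 3, 4, 5 and 6 and at 4.64, 6.70, 6.36 and 5.89 CPM in empty vector stimulated cells, with no overlap between these groups. In sgRNA cells it was at 2.59, 4.71, 3.14 and 5.85 CPM in control and at 4.71, 7.24, 3.92 and 6.43 CPM after stimulation. There the groups overlapped, and replicates 4 and 6 were the high ones in both. Over both plasmids 5 of 8 stimulated libraries lay above the highest control library.

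**Figure D2:**
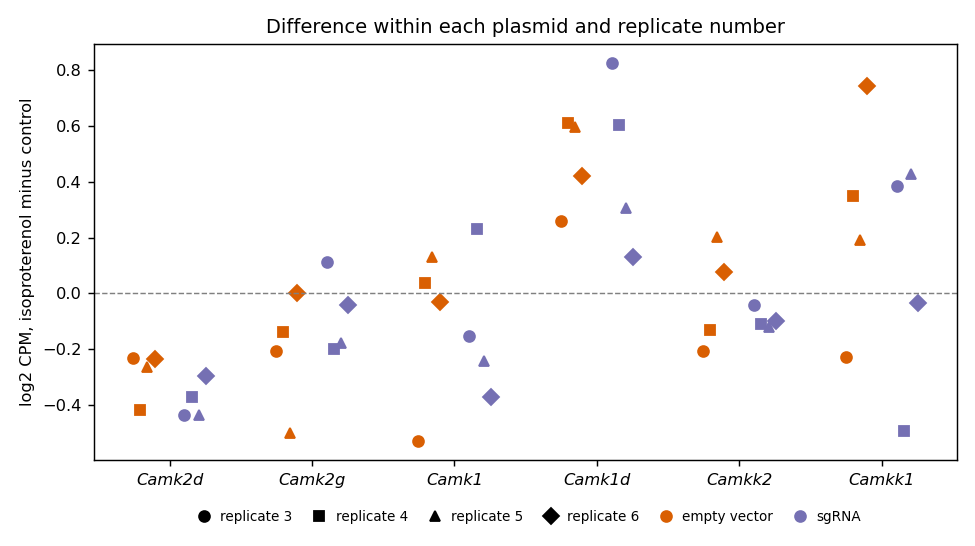
Difference in log2 CPM, stimulated minus control, of each tested kinase gene within the same plasmid and replicate number. Each symbol is 1 pair of libraries, orange for the empty vector and purple for sgRNA cells. All 8 pairs of *Camk2d* lie below 0 and all 8 of *Camk1d* above it, and the other genes have pairs on both sides.

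Averaged over plasmids the log2 fold change of *Camk1d* was 0.48 (SE 0.18, 95% interval 0.11 to 0.85, adjusted p = 0.145 by edgeR). It was higher in 8 of 8 pairs, by 0.13 to 0.83. With the replicate block it was 0.48 (95% interval 0.20 to 0.75) and passed the test with an adjusted p of 0.0160. That call was lost when replicate 3 or replicate 4 was left out of the blocked fit (adjusted p = 0.0567 and 0.110) and was kept without replicate 5 or 6 (0.0342 and 0.0247). With the ribosomal RNA share added to the block the log2 fold change was 0.41 (adjusted p = 0.0476). The log2 fold change was 0.50 in the empty vector and 0.46 in sgRNA cells, and neither was called with or without the block.

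*Camk2g*, the second CaMKII subunit gene by level, was at 17.9, 18.3, 17.5 and 17.2 CPM in empty vector control replicates 3, 4, 5 and 6 and at 15.5, 16.7, 12.3 and 17.2 CPM in empty vector stimulated cells. In sgRNA cells it was at 16.02, 18.4, 15.4 and 16.8 CPM in control and at 17.3, 16.01, 13.6 and 16.3 CPM after stimulation. The ranges overlapped, and 2 of 8 stimulated libraries, both of replicate 5, were below the lowest control library. The isoproterenol effect was a log2 fold change of −0.14 (SE 0.08, 95% interval −0.30 to 0.03, adjusted p = 0.407 in edgeR, 0.121 with the block), lower in 6 of 8 pairs. With the block the interval was −0.26 to −0.0093 and the unadjusted p 0.0372 (edgeR), and the adjusted p did not pass. Whether the effects on *Camk2d* and *Camk2g* differ was not tested.

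*Camk1* ranged from 26.6 to 35.2 CPM in the 8 control and from 24.4 to 41.0 CPM in the 8 stimulated libraries, so that the stimulated range held the control range within it. Its log2 fold change was −0.10 (95% interval −0.33 to 0.13, adjusted p = 0.703 in edgeR). *Camkk2*, the CaMK kinase gene with the higher level, ranged from 18.9 to 23.4 CPM in control and from 16.4 to 23.9 CPM in stimulated libraries. Its log2 fold change was −0.05 (95% interval −0.21 to 0.11, adjusted p = 0.810 in edgeR), which leaves room for a fall of 0.21 at most on the log2 scale at this confidence.

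*Camkk1*, the other CaMK kinase gene, had 280 counts over all 16 libraries and was measured with less precision. It ranged from 0.649 to 2.05 CPM in control and from 0.763 to 2.02 CPM in stimulated libraries, and in every group the library of replicate 5 was the lowest. Its log2 fold change was 0.17 (95% interval −0.39 to 0.73, adjusted p = 0.809 in edgeR), and with the block 0.18 (95% interval −0.22 to 0.57, adjusted p = 0.573), so the data leave room for a change in either direction within these limits. Replicate number accounted for a share of 0.814 of its variance within groups.

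Across the 16 libraries the 6 kinase genes did not vary as 1 group. Pearson's r of log2 CPM between *Camk2d* and *Camk2g* was 0.20, between *Camk2d* and *Camk1d* −0.49 and between *Camk1* and *Camkk2* 0.59. These are descriptions over libraries that share treatment, replicate number and scaling.

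**Figure D3:**
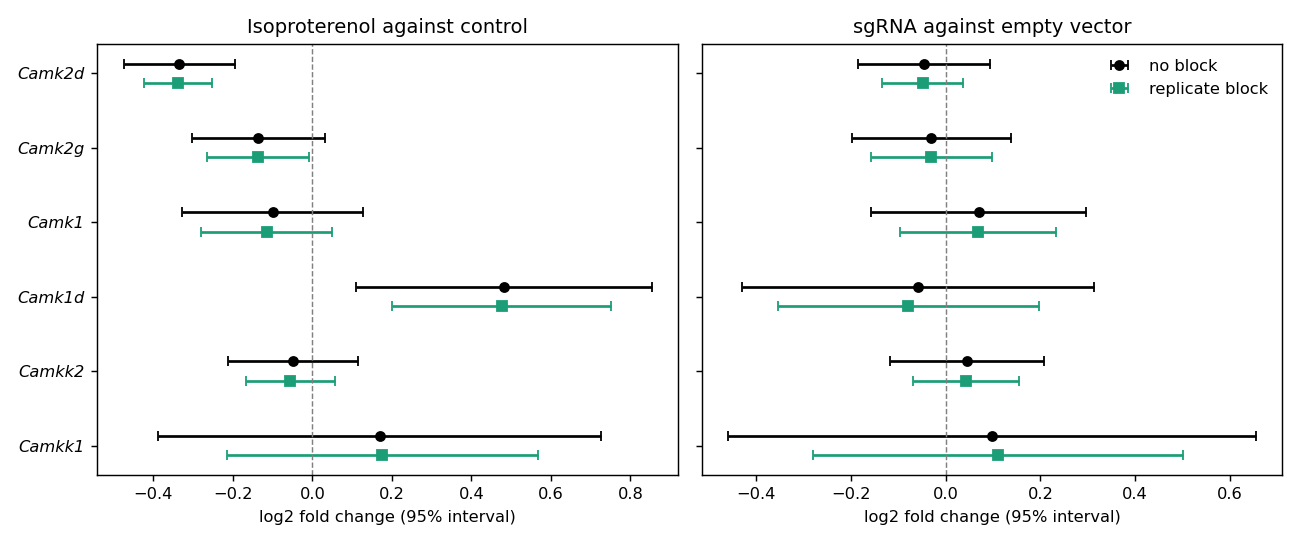
Log2 fold changes of the 6 tested kinase genes with 95% intervals, for isoproterenol against control averaged over plasmids (left) and sgRNA against empty vector averaged over treatments (right). Circles are fits without and squares fits with the replicate block. On the left both intervals of *Camk2d* and of *Camk1d* lie to one side of 0, as does the interval of *Camk2g* with the block (−0.26 to −0.0093), and on the right all intervals hold 0.

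The plasmid contrast asks whether a CRISPRa complex placed in an intron of *Camk2d*, with the rise of *Gm15551*, goes with another level of the host gene or of its relatives. In *Camk2d* the averaged sgRNA effect was a log2 fold change of −0.05, with a 95% interval of −0.19 to 0.09 without and −0.13 to 0.04 with the block. It was lower in 6 of 8 pairs, 2 of 4 in control and 4 of 4 in stimulated cells. In control cells the log2 fold change was 0.003 (95% interval −0.19 to 0.20) and in stimulated cells −0.10 (95% interval −0.29 to 0.10). Over 25 alternative settings it lay between −0.033 and 0.062 in control and between −0.143 and −0.0029 in stimulated cells. The ribosomal RNA share was lower in sgRNA than in empty vector libraries on average, and with that share as a covariate the averaged sgRNA effect on *Camk2d* was 0.03 on the log2 scale. With the block edgeR called 1 of 8 tested adipocyte and 1 of 4 tested preadipocyte or fibroblast markers for the averaged sgRNA effect. It called 0 of the tested 5 smooth muscle, 2 skeletal muscle, 1 neuron and 1 macrophage markers. Of all tested genes 0.586% were called there. Without the block edgeR called 0 of these markers, 1 had an unadjusted p under 0.05, and DESeq2 called 0. With the block the thermogenic adipocyte marker *Cidea* rose (log2 fold change 1.05, adjusted p = 0.0348 in edgeR) and the preadipocyte marker *Ly6a* fell (−0.74, adjusted p = 0.00491). Of the 8 tested adipocyte markers 6 had a higher and 2 a lower estimate in edgeR without the block. Of the 4 tested preadipocyte or fibroblast markers 2 had a higher and 2 a lower one.

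Of the other tested genes, the averaged sgRNA effect on the log2 scale was −0.03 in *Camk2g* (95% interval −0.20 to 0.14), 0.07 in *Camk1* (−0.16 to 0.30) and −0.06 in *Camk1d* (−0.43 to 0.31). It was 0.10 in *Camkk1* (−0.46 to 0.66) and 0.04 in *Camkk2* (−0.12 to 0.21). By edgeR 0 of the 6 genes were called for the averaged sgRNA effect, at an adjusted p of 0.9997 each, and 0 had an unadjusted p under 0.05. The block and DESeq2 also called 0 of 6. Of all 13150 tested genes edgeR called 0% without the block and 0.586% with it. An unadjusted p under 0.05 was found in edgeR for 437 of them without the block and 1506 with it. DESeq2, which was fitted to all genes with a count, called 12 genes.

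In control cells alone and in stimulated cells alone, edgeR, the block and DESeq2 each called 0 of the 6 genes for the sgRNA effect, and 0 had an unadjusted p under 0.05. Over all tested genes 0% were called in either contrast without the block, where 194 and 196 genes had an unadjusted p under 0.05, and DESeq2 called 2 in each. With the block 0.038% were called in control and 0.137% in stimulated cells, and 754 and 958 genes had an unadjusted p under 0.05. The intervals bound the effect on *Camk2d* more tightly than that on *Camk1d* or *Camkk1*, which had fewer counts.

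The interaction asks whether the isoproterenol effect differed between the plasmids. In *Camk2d* it was −0.10 on the log2 scale (SE 0.13, 95% interval −0.38 to 0.18), with sgRNA cells showing the larger fall in 3 of 4 replicate numbers. In *Camk1d* it was −0.04 (95% interval −0.79 to 0.70). For the interaction edgeR without and with the block and DESeq2 called 0 of the 6 genes, and 0 had an unadjusted p under 0.05. Of all tested genes 0% were called without and with the block, 52 had an unadjusted p under 0.05 without it and 199 with it, and DESeq2 called 0.

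How read strand was handled is not given in the sources used here, so reads of *Gm15551* and of unspliced *Camk2d* RNA from the intron around it cannot be told apart. Of the 505 words of 31 bases in the *Gm15551* transcript, 0 occurred in an annotated transcript of another gene, *Camk2d* included. *Gm15551* itself also fell under isoproterenol, with a log2 fold change of −1.69 and an SE of 0.39 (adjusted p = 0.0214 in edgeR, 0.00062 with the block), lower in 8 of 8 pairs. It was −2.45 in empty vector cells, where the 4 stimulated libraries held 8 counts in all (adjusted p = 0.0950 in edgeR, 0.00436 with the block), and −0.93 in sgRNA cells, where it was not called (0.634 and 0.0785).

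**Figure D4:**
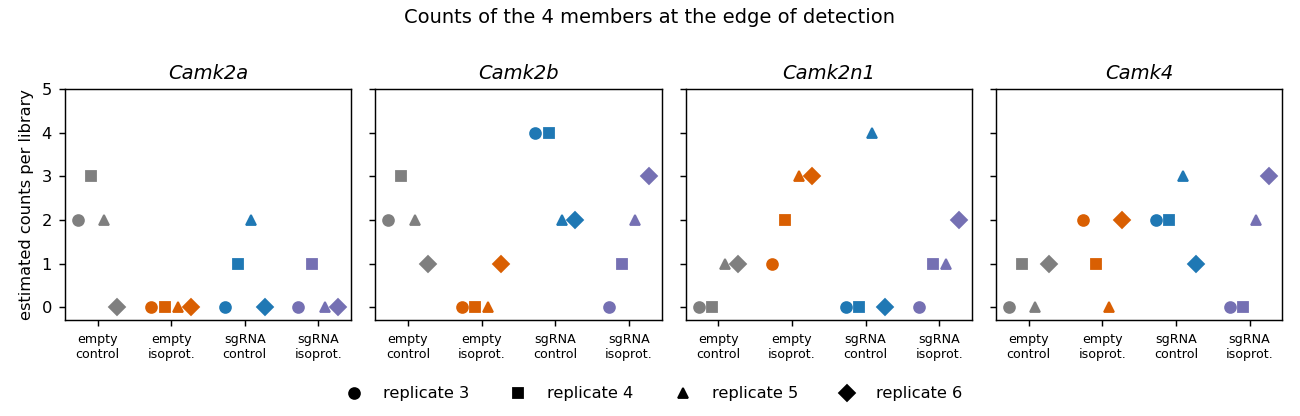
Estimated counts per library of *Camk2a*, *Camk2b*, *Camk2n1* and *Camk4*, by plasmid and treatment, with symbols by replicate number. All libraries lie between 0 and 4 counts.

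The 4 remaining genes did not pass the filter. *Camk2a*, which encodes the α subunit of CaMKII that is abundant in forebrain neurons, had 11 counts in all 16 libraries. They were 2, 3, 2 and 0 in empty vector control replicates 3, 4, 5 and 6, 0 in every empty vector stimulated library, 0, 1, 2 and 0 in sgRNA control and 0, 1, 0 and 0 in sgRNA stimulated cells. Summed, 10 counts fell in control and 1 in stimulated libraries.

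*Camk2b*, which encodes the β subunit, had 27 counts, 2, 3, 2 and 1 in empty vector control, 0, 0, 0 and 1 in empty vector stimulated, 4, 4, 2 and 2 in sgRNA control and 0, 1, 2 and 3 in sgRNA stimulated cells. It had a count in 8 of 8 control and 4 of 8 stimulated libraries, with sums of 20 and 7. Libraries with 0 counts allow a level of up to 0.166 to 0.390 CPM, depending on depth. With no filter, when 34821 genes were tested, the adjusted p of the isoproterenol effect was 0.343 for *Camk2a* and 0.396 for *Camk2b* in edgeR. Their unadjusted p was 0.0165 and 0.0220, with fewer counts in the stimulated libraries in both genes.

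*Camk2n1*, which encodes a peptide inhibitor of CaMKII, had 19 counts, 6 in control and 13 in stimulated libraries. Of these, 9 were in the empty vector stimulated group, where each library had 1 to 3 counts. *Camk4*, best known from neurons and T cells, had 20 counts, 10 in control and 10 in stimulated libraries. Their adjusted p without a filter was 0.886 and 1 in edgeR. Neither gene passed the test.

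Promoters were read for sequence shared by the members. RefSeq (GRCm38.p6) gave a window from 250 bases before to 50 bases after the start for 6 of the 10 genes. A pair of motifs of cyclic AMP response were searched on both strands: the full element TGACGTCA, which 1.79% of 32851 promoter windows of the same length held, and its shorter core TGACG, which 20.8% held and which is contained in the full element. The full element was in none of the members' windows. The core was in *Camk1* (chr6:113344083-113344127, minus strand, shown) and *Camkk1* (chr11:73018802-73018846, plus strand, shown), with the core in capitals.
Camk1: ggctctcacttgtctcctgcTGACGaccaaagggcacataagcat
Camkk1: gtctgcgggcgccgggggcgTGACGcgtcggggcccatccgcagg
These 2 genes did not pass the test under isoproterenol. The window of *Camk2d* (upstream part chr3:126596701-126596950, plus strand) is printed because *Camk2d* was the kinase gene that fell. These letters are not in it, nor in the windows of *Camk1d*, *Camkk2* and *Camk2b*. By the GENCODE gene starts, the windows of *Camk2d* (gene start chr3:126596302) and *Camk2b* lie inside the genes. Sequence before those starts was not searched.
Camk2d: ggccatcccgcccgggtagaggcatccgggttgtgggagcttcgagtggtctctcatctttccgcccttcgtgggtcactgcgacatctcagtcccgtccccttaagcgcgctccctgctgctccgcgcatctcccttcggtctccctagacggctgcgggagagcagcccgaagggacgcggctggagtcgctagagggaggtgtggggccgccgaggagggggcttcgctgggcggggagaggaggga
Of the *Camk2d* window 70.3% was G or C.

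The genes around the kinases were described by 5 lists of 81 genes, of which 55 were tested. Under isoproterenol edgeR called 1 of the 55, which rose, without the block, beside 4.49% of all tested genes. Without the block 11 of the 55 had an unadjusted p under 0.05, beside 2330 of all 13150 tested genes. DESeq2 called 4 of the 55, beside 942 of all genes with a count. With the block edgeR called 6 that rose and 9 that fell, 27.3% of the 55, beside the 21.3% of all tested genes given above. With it 21 of the 55 had an unadjusted p under 0.05, beside 4399 of all tested genes. For the averaged sgRNA effect 0 of the 55 were called without or with the block or by DESeq2. An unadjusted p under 0.05 was found in 0 without the block and 4 with it, beside 437 and 1506 of all tested genes.

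The 1 gene called without the block was *Mylk*, from the list of other kinases of the CaMK group, which encodes the myosin light chain kinase, also switched on by calmodulin. It was at 17.3, 14.5, 15.7 and 20.04 CPM in empty vector control replicates 3, 4, 5 and 6 and at 24.9, 24.7, 22.01 and 28.2 CPM in empty vector stimulated cells. In sgRNA cells it was at 14.4, 14.2, 19.5 and 19.9 CPM in control and at 27.9, 25.6, 34.6 and 26.1 CPM after stimulation. The 8 stimulated libraries all lay above the 8 control libraries. *Mylk* rose in edgeR's test (log2 fold change 0.66 with SE 0.10, adjusted p = 0.00143), in the direction opposite to *Camk2d*. The part of the smooth muscle markers given above in the rise of *Mylk* was not tested.

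**Figure D5:**
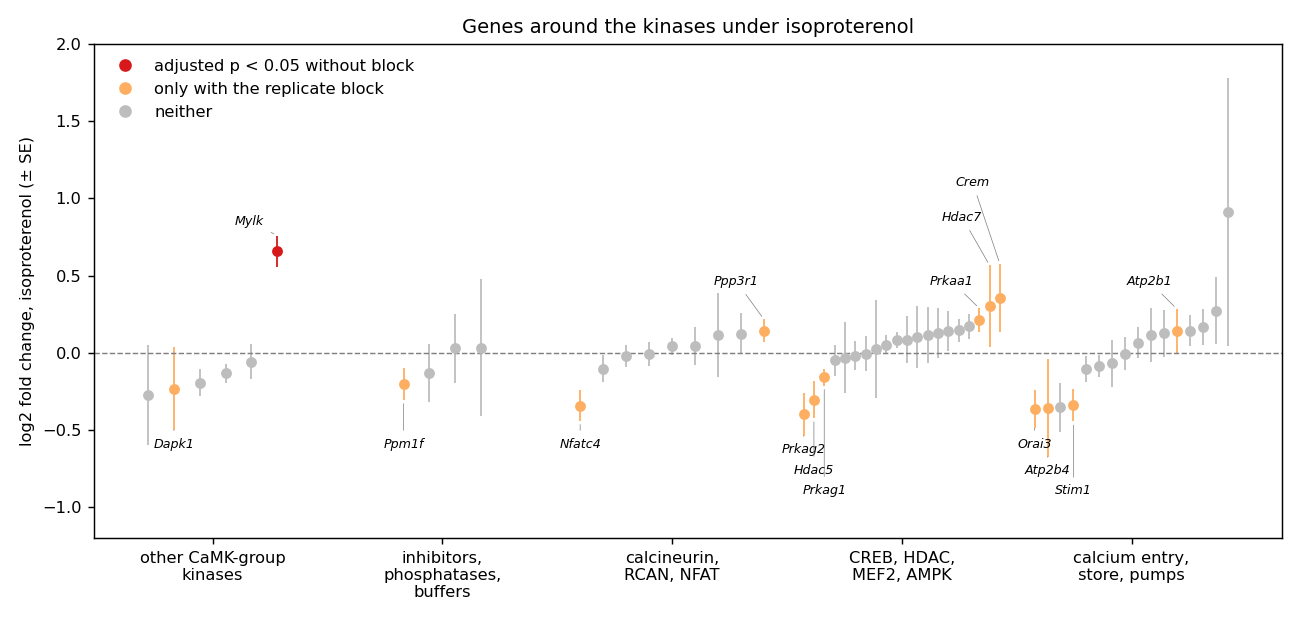
Log2 fold change under isoproterenol, averaged over plasmids, of the 55 tested genes in 5 lists around the kinases, with SE bars and sorted within each list. Red marks a call by edgeR without the replicate block (*Mylk*), orange a call by edgeR with the block and not without it (14 genes, named), and grey neither.

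Of the 14 genes of that list 6 were tested, and their median log2 fold change was −0.17, beside 0.005 over all tested genes. With the block *Dapk1*, the death-associated protein kinase gene, also fell (log2 fold change −0.24, adjusted p = 0.0192 in edgeR).

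In the list of CaMK inhibitors, phosphatases and calmodulin buffers 4 of 8 genes were tested, with a median log2 fold change of −0.05. *Ppm1f*, which encodes a phosphatase that removes the activating phosphate from CaMKII, fell with the block (log2 fold change −0.19, adjusted p = 0.0321 in edgeR). *Camk2n2*, a relative of *Camk2n1*, was at 1.51 to 4.16 CPM in control and 1.94 to 4.33 CPM in stimulated libraries. In the list of calcineurin, the calcium-dependent phosphatase, and its NFAT targets 9 of 12 genes were tested, with a median of 0.04. With the block *Ppp3r1*, the regulatory subunit gene of calcineurin, rose (log2 fold change 0.14, adjusted p = 0.0388 in edgeR) and *Nfatc4* fell (−0.35, adjusted p = 0.00523).

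Among CREB and its coactivators, class IIa HDAC, MEF2 and AMPK genes, which encode known targets of these kinases, 20 of 23 were tested, with a median log2 fold change of 0.08. With the block 3 rose and 3 fell. The largest of these changes were in *Prkag2*, an AMPK regulatory subunit gene (−0.39, adjusted p = 0.00025 in edgeR), *Crem*, a cyclic AMP response factor gene (0.35, adjusted p = 0.0261), and *Hdac5* (−0.31, adjusted p = 0.0162). *Prkaa1*, which encodes an AMPK catalytic subunit that *Camkk2* can activate, rose with the block (0.21, adjusted p = 0.00595 in edgeR). Without the block it did not pass (adjusted p = 0.155). *Prkaa2*, tested in the same list, did not pass with the block (0.13, adjusted p = 0.305 in edgeR) or without it (adjusted p = 0.653).

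Among genes of calcium entry, store and pumps 16 of 24 were tested, with a median log2 fold change of 0.03. With the block 1 rose and 3 fell. The 3 that fell were *Atp2b4*, a plasma membrane calcium pump gene (−0.39, adjusted p = 0.0393 in edgeR), *Orai3*, a calcium channel subunit gene (−0.36, adjusted p = 0.0114), and *Stim1*, the sensor of the calcium store (−0.34, adjusted p = 0.0011). Each of them was lower in 8 of 8 pairs.

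The 5 tested genes whose log2 CPM was most like that of *Camk2d* over the 16 libraries, by Pearson's r, were *Mxd4* (0.96), *Pik3r1* (0.96), *Sult1a1* (0.95), *Pik3ap1* (0.93) and *Nsdhl* (0.93). *Mxd4* was at 81.2 to 103.1 CPM in control and 58.8 to 78.6 CPM in stimulated libraries, again without overlap. *Pik3r1* encodes the regulatory subunit of PI3 kinase and was at 77.2 to 124.7 CPM in control and 43.0 to 77.7 CPM in stimulated libraries. The isoproterenol log2 fold changes of the 5 genes were −0.46, −0.76, −1.89, −1.13 and −0.65, and each was called in edgeR without the block, with adjusted p values of 0.00264 to 0.0134. They were picked for their likeness to *Camk2d*, which fell, so that their direction is no separate result.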

How the data were processed

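Paired-end reads were filtered by the authors using cutadapt, and salmon assigned them to the GENCODE M22 transcriptome (GRCm38). They deposited estimated counts per gene as whole numbers, not normalized. Tool versions and strand use were not given in the sources used here. All 16 columns matched a sample title and were used.

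Genes were taken by symbol, and 10 of 54347 were members. Members and gene lists were chosen with earlier results of these data known. Counts were tested in R 4.3.3 with edgeR 4.0.16: filterByExpr (minimum count 10, minimum total 15), TMM scaling, 4 group means, glmQLFit and two-sided glmQLFTest, with Benjamini-Hochberg adjustment over 13150 genes and calls at an adjusted p under 0.05. CPM used the TMM-scaled library sizes, and log2 CPM used a prior count of 2. The fitting code was tested on simulated data. Total counts were 9053521 to 16546187 per library, and the limit that a count of 0 allows (3 counts) covers counting error only.

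Whether replicate numbers pair the libraries was checked on deviations from group means. The correlation was 0.22 to 0.61 in 24 pairs of the same number and −0.51 to 0.52, with a median of −0.21, in 72 pairs of different number and group, so the numbers, which come from the sample titles, were treated as pairing. Alternatives were the replicate block, RLE size factors, DESeq2 1.42.0, no filter, the ribosomal RNA share as covariate, a bound of 0.5 on the absolute log2 fold change, and leaving out each library or number. The block combined with left-out numbers or the ribosomal RNA share, and the merged-exon length, were added after the data were seen. DESeq2 was fitted to all genes with a count, so its calls are not a share of the 13150 genes. Named genes were all members, *Gm15551* and the 5 genes most like *Camk2d*. In each pathway list up to 3 called genes with the largest absolute change under isoproterenol were named, and any called for the averaged sgRNA effect. *Prkaa1*, *Prkaa2*, *Camk2n2* and the cell type markers were named after their values were seen. Coordinates and transcript lengths came from GENCODE M21 and promoters from RefSeq, both of the GRCm38 build, and guide sequences from the study's supplement. The result of 1 further gene list is not reported here.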

Additional observations from a re-analysis of the deposited data

How the results depend on the processing

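The fall of *Camk2d* under isoproterenol, averaged over plasmids, kept its direction in all 30 alternatives, with log2 fold changes of −0.37 to −0.31, and its side of the threshold in 28. The rise of *Camk1d* kept its direction in all 30 (0.40 to 0.59) and passed the threshold in 4, all with the replicate block. The other 4 tested members kept their direction in all 30 and passed in 0, with −0.18 to −0.0798 in *Camk2g*, −0.21 to −0.0249 in *Camk1*, 0.053 to 0.33 in *Camkk1* and −0.0924 to −0.0061 in *Camkk2*. The number of members called for the averaged isoproterenol effect was 1 of 6. It was 2 with the replicate block, 2 with the block and the ribosomal RNA share, and 0 with a bound of 0.5 on the absolute log2 fold change. Leaving out replicates gave 0 to 2, with 0 without replicate 3 or without replicate 4 (no block) and 2 without replicate 5 or 6 (with the block). In empty vector cells alone the block moved the count from 0 to 1, and in sgRNA cells alone the block, DESeq2 and the ribosomal RNA share each moved it from 0 to 1, the gene being *Camk2d*. The block changed no other call of a member. The cause of these moves was not tested.

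For the sgRNA effect and the interaction, 0 members were called under any alternative. Signs of small estimates turned. With the ribosomal RNA share the averaged sgRNA log2 fold change was 0.0296 in *Camk2d*, −0.0411 in *Camk1* and −0.23 in *Camkk1*, and with the replicate block that of *Camk2d* in control cells was −0.0007. The following ranges are over fits that left out a single library or a replicate number. Averaged sgRNA values were −0.0722 to 0.01 in *Camk2g*, −0.0043 to 0.11 in *Camk1*, −0.19 to 0.082 in *Camk1d* and −0.0222 to 0.22 in *Camkk1*. For *Camk2d* in control cells the values were −0.033 to 0.0485. Interactions were −0.19 to 0.10 in *Camk1* and −0.22 to 0.17 in *Camk1d*. Depth limits the 4 members with at most 4 counts in any library.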
